A study of Mus musculus with 15 samples.

Results

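Cells that carried the eGFP transcript of a cardiac enhancer reporter were compared with the other cells of the same control embryo. A cell was called eGFP-positive if at least 1 UMI of eGFP was counted in it and eGFP-negative if none was, a UMI (unique molecular identifier) being the tag that marks each captured RNA molecule. The eGFP-positive cells numbered 7115 of 77481 cells retained from 12 control embryos, and 93701 cells were retained in the whole series. The cells were chosen by the eGFP count itself, so it is described below without a test, and the tests concern the other genes and the second reporter.

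The reporter holds *Smarcd3*-F6, an enhancer of *Smarcd3*, with an *Hsp68* minimal promoter and a nuclear eGFP, placed at *Hipp11* and not at the *Smarcd3* locus. Embryos were labelled as strain C57/BL6 and whole embryo tissue, and each was dissociated whole, after de-yolking at the later stages. Every embryo gave a separate library, read from the 5′ ends of transcripts, with no sorting of cells. The early control embryos were 3 labelled E6.0, 1 labelled late E6.0 and 1 labelled E6.5. The middle ones were 1 at early E7.5, 1 at E7.0 and 1 at late E6.5, and the late ones were 2 at late E7.5 and 2 at E7.75. Control embryos have at least 1 wild-type *Mesp1* allele, the other being wild type or *Mesp1* Cre, a knock-in that also drives the lineage reporter. In 10 of these embryos Cre recombines *Rosa26R*-Ai14, which marks descendants of *Mesp1*-expressing cells in red, and the early E7.5 embryo and late E7.5 replicate 1 lack Ai14. Embryos had been screened for red and green fluorescence before use. The 3 *Mesp1* KO embryos, at E6.5, E7.0 and late E7.5, carry the same eGFP reporter and enter only the last comparison.

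*Smarcd3* encodes BAF60c, a subunit of the BAF chromatin remodelling complex that works with cardiac transcription factors, and it is switched on in mesoderm that will give rise to the heart. During gastrulation cells leave the epiblast through the primitive streak, pass through a *Mesp1*-expressing state, and spread as lateral plate, extra-embryonic, cranial or paraxial mesoderm. Cardiac precursor cells (CPCs) arise among the first *Mesp1*-lineage cells to migrate and later turn on genes of the sarcomere, the contractile unit of muscle.

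The promoter windows of the gene whose enhancer drives the reporter and of *Hspa1a*, for which *Hsp68* is an older name, are shown because both genes stood out in the comparisons below. Both are read 5′ to 3′ on the minus strand from RefSeq on GRCm38.p6, from 250 bases before to 50 bases after the RefSeq start. The *Smarcd3* window lies inside the longer gene span of the annotation, chr5:24590818-24624411 (mm10). Capitals mark matches, on either strand, to GAANNTTC (a heat shock element) and to the CCAAT box. The windows were also searched on both strands for the sequence TATAAA of the core promoter. A further search was for AGATAA, which proteins of the GATA family recognise, and the last was for the sequence CATCTG, which is bound by factors of the basic helix-loop-helix kind and called an E-box.
*Smarcd3* chr5:24601953-24602252: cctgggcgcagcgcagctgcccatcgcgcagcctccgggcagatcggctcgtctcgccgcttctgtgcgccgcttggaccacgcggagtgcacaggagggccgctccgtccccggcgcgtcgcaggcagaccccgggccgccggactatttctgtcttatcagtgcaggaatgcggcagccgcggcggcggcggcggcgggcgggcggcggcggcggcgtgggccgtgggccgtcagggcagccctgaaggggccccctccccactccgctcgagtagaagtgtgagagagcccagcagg
*Hspa1a* chr17:34972107-34972406: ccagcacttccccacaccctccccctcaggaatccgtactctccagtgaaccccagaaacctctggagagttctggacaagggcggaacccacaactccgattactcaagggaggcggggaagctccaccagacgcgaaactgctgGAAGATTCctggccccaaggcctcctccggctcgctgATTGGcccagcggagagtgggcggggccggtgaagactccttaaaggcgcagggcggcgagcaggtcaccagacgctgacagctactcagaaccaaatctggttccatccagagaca
The *Hspa1a* window held 1 heat shock element and 1 CCAAT box, and the *Smarcd3* window held none of the 5 motifs. Over 32851 RefSeq promoters of the same length, 7.86% held the heat shock element, 37.4% CCAAT, 13.6% the core promoter sequence, 11.2% the GATA family sequence and 17.2% the E-box.

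Across control embryos, between 2.55% and 14.2% of cells were eGFP-positive, and most of them had few eGFP molecules. Of the 7115 cells, 5134 had 1 eGFP UMI, 1230 had 2 and 751 had 3 or more, up to 14. The E6.0 embryos held 8.48%, 12.2% and 10.2% eGFP-positive cells, the late E6.0 embryo 11.7% and the E6.5 embryo 9.61%. The middle embryos held 5.82% at late E6.5, 11.1% at E7.0 and 5.68% at early E7.5. The late embryos held 10.8% and 10.7% at late E7.5, and 2.55% and 14.2% at E7.75. The lowest value was that of E7.75 replicate 1, a shallow library with a median of 3926 UMIs per cell against 14063 to 34415 in the other control embryos.

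**Figure D1:**
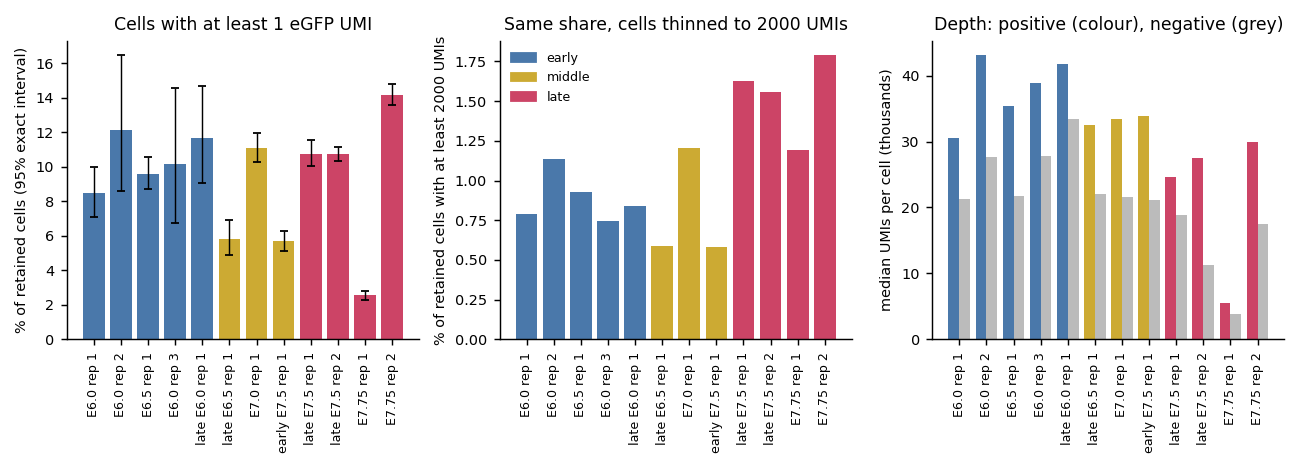
The bars of the left panel are the percentage of retained cells with at least 1 eGFP UMI in each control embryo with its exact 95% binomial interval, those of the middle panel the same percentage after thinning every cell to 2000 UMIs, and those of the right panel the median UMIs per cell of eGFP-positive (coloured by stage) and eGFP-negative cells (grey). The raw share ran from 2.55% to 14.2%, the thinned share from 0.583% to 1.79%, and in each embryo eGFP-positive cells were the deeper ones.

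Detection of eGFP moved with sequencing depth. In each of the 12 embryos eGFP-positive cells had more UMIs than eGFP-negative cells, with medians of 5550 to 43133 against 3882 to 33370, and 1.25 to 2.42 times as many. When 2000 UMIs were drawn from each cell, and cells with fewer were dropped, the share fell to between 0.583% (early E7.5) and 1.79% (E7.75 replicate 2). At this equal depth the 4 late embryos held 1.19% to 1.79%, and of the other 8 only E7.0, with 1.20%, and E6.0 replicate 2, with 1.14%, exceeded 1%. Over all 15 libraries, totals ran from 13058356 to 379177866 UMIs, and a pair of libraries shared at most 451 cell barcodes (late E7.5 replicate 2 with E7.75 replicate 1) and at most 3.65% of the cells of the smaller library (both late E7.5 controls). The mitochondrial share moved with eGFP as well, with medians of 1.53% to 2.20% of UMIs in eGFP-positive and 1.41% to 1.94% in eGFP-negative cells, the former higher in each of the 12 embryos. Within classes pooled over embryos, the gap was wide in lateral plate-like cells (1.69% and 0.349%) and epiblast-like cells (1.51% and 0.284%). Neural ectoderm-like cells (1.42% and 1.62%) went the other way. The pooled epiblast-like gap mixes embryos with unlike mitochondrial shares. In single embryos with at least 50 epiblast-like cells the gap was smaller, for example 1.817% and 1.454% at E7.0. It was reversed at E6.0 replicate 3, at early E7.5 (0.0953% and 0.1235%) and at E7.75 replicate 2. The lateral plate-like gap was wide inside single embryos too. It was 1.62% and 0.0403% at E6.5, 1.85% and 0.108% at E7.0, and 1.72% and 0.113% at early E7.5. At late E7.5 it was 1.74% and 0.142% in replicate 1 but 1.75% and 1.34% in replicate 2, and at E7.75 replicate 2 it was 1.55% and 0.117%. The mitochondrial share was not matched below, and its part in the differences was not tested. The order of the raw shares of eGFP-positive cells does not carry over to equal depth, and no order is read from it.

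eGFP was counted mostly in mesodermal classes. Cells were clustered with both reporters and all listed genes held out, and clusters were named from marker lists with the ending "-like". These marker lists held no class for cardiac progenitors or cranial mesoderm, so such cells could only fall into other classes or unnamed clusters. Cells of the cardiomyocyte-like cluster were eGFP-positive in 32.1% (186 of 580), nascent mesoderm-like cells in 26.3%, lateral plate and extra-embryonic mesoderm-like cells in 23.1%, paraxial mesoderm-like cells in 15.7% and endothelial-like cells in 14.8%. After thinning to 2000 UMIs the share was 8.75% in cardiomyocyte-like cells, 3.003% in lateral plate-like cells, 2.70% in paraxial-like cells, 2.52% in nascent mesoderm-like cells and 2.15% in endothelial-like cells. The shares differed between embryos, also within a class. Among embryos with at least 50 cells of a class, cardiomyocyte-like cells were eGFP-positive in 55.2% at late E7.5 replicate 2 and 11.3% in the shallow E7.75 replicate 1 (11.7% and 5.64% after thinning), and lateral plate-like cells in 10.4% to 33.9%. Paraxial-like cells ranged from 5.62%, in the shallow E7.75 replicate 1, to 23.9%, and nascent mesoderm-like cells from 17.3% to 46.2%. These raw ranges also follow depth. After thinning they were 1.06% to 4.24% for lateral plate-like, 1.46% to 3.77% for paraxial-like and 1.75% to 4.22% for nascent mesoderm-like cells. After thinning, node and notochord-like cells held 1.69%, blood-like cells 0.989%, parietal endoderm-like cells 0.748%, caudal epiblast-like cells 0.635% and unnamed clusters 0.92%. Unnamed clusters held 11.8% of all eGFP-positive cells. Among them, a cluster of 1759 cells with lateral plate and allantois markers was eGFP-positive in 28.8% before thinning.

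Classes in which a cardiac mesoderm enhancer is not known to act gave a background level. Extra-embryonic ectoderm-like cells were eGFP-positive in 2.49% of 2856 cells, at a median of 22070 UMIs, and in 0.223% after thinning. Neural ectoderm-like cells were eGFP-positive in 0.654% of 4891 cells, at a median of only 4410 UMIs, and in 0.295% after thinning, but 97.5% of them came from the shallow E7.75 replicate 1, so this is the value of 1 embryo. In late E7.5 replicate 2, the other embryo with at least 50 such cells, 0 of 109 were eGFP-positive, and the exact interval reaches 3.33%. These 109 cells had a median of only 1758 UMIs, so the absence of eGFP there says little. Surface ectoderm-like cells (0.395% thinned), epiblast-like cells (0.389%) and gut-like cells (0.484%) were near the thinned background level, and visceral endoderm-like cells were at 0.639%. Part of the eGFP-positive cells outside mesoderm therefore cannot be told apart from background. Cells marked as likely doublets made up 13.4% of eGFP-positive and 10.9% of eGFP-negative cells overall. In these background classes the gap was wider, with 21.1% and 10.6% in extra-embryonic ectoderm-like cells, 28.1% and 12.1% in neural ectoderm-like cells and 30.5% and 11.3% in surface ectoderm-like cells, and the part of doublets and of free RNA in the background was not tested.

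To separate depth from identity, each eGFP-positive cell was paired with an eGFP-negative cell of the same embryo whose total differed by at most 5%. All 7115 cells found a partner. Median UMIs then differed little in each embryo, for example 27446 on both sides in late E7.5 replicate 2. Cells of the pairs differed in class. Paraxial mesoderm-like cells were 29.5% of eGFP-positive cells and 14.4% of partners, lateral plate-like cells 16.2% and 5.50%, nascent mesoderm-like cells 10.3% and 3.67%, and cardiomyocyte-like cells 2.61% and 0.183%. These shares pool all pairs, so large late embryos weigh most. Lateral plate-like cells were more frequent among eGFP-positive cells in 9 embryos and less frequent in none. For nascent mesoderm-like cells the counts were 9 and 1 embryos, for paraxial-like cells 6 and 1, and for cardiomyocyte-like cells 3 and 0. The median over embryos was 0.484% and 0.130% for paraxial-like cells and 0% on both sides for cardiomyocyte-like cells. Epiblast-like cells were 4.91% of eGFP-positive cells and 12% of partners, and visceral endoderm-like cells 6.31% and 12.3%, less frequent among eGFP-positive cells in 11 of the 12 embryos and more frequent in none. Counts were summed per embryo and side for the tests, and in such sums more cells of a type and more RNA per cell cannot be told apart, so every difference below stands beside these shares.

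Between eGFP-positive cells and their partners of equal depth, most tested genes among the listed cardiac transcription factors, sarcomere genes and lateral plate genes were higher, and the 4 listed genes of epithelial adhesion were lower. edgeR's quasi-likelihood test, with the embryo as a block, called 4176 of 11790 genes (35.4%) at an adjusted p under 0.05, of which 2175 were higher (18.4%) and 2001 lower (17%). Without matching, 5574 of 13618 genes (40.9%) were called. Of the 4176 genes, 3825 were also called without matching, which is 91.6% of the matched and 68.6% of the unmatched calls, and all 3825 had the same direction in both. With so wide a background, the size of a change and its agreement between embryos say more than its call.

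*Smarcd3* (chr5:24590818-24624411, minus strand), whose enhancer drives the reporter, was 4.97-fold higher in eGFP-positive cells. In early embryos its level in CPM (counts scaled to 1e6 per sum) was 0 in eGFP-positive cells and 0.272 in partners at E6.0 replicate 1, 2.17 and 0.723 at E6.0 replicate 2, 2.13 and 1.06 at E6.0 replicate 3, 6.92 and 0.433 at late E6.0, and 20.2 and 3.52 at E6.5. In middle embryos it was 7.96 and 1.80 at late E6.5, 37.95 and 7.03 at E7.0, and 58.8 and 18.1 at early E7.5. In late embryos it was 93.4 and 17.4, then 20.2 and 3.33, at late E7.5, and 22.7 and 7.12, then 72.5 and 14.5, at E7.75. The level was higher in eGFP-positive cells in 11 of 12 embryos, and in the exception, E6.0 replicate 1, *Smarcd3* gave only 1 count over both sides. E6.0 replicates 2 and 3 held only 35 and 26 eGFP-positive cells, so their values rest on few counts too. The log2 fold change was 2.31 ± 0.099 (SE, n = 12 embryos, adjusted p = 2.78e-10 by edgeR). The reporter lies at another locus and encodes eGFP, which was counted apart from *Smarcd3*.

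**Figure D2:**
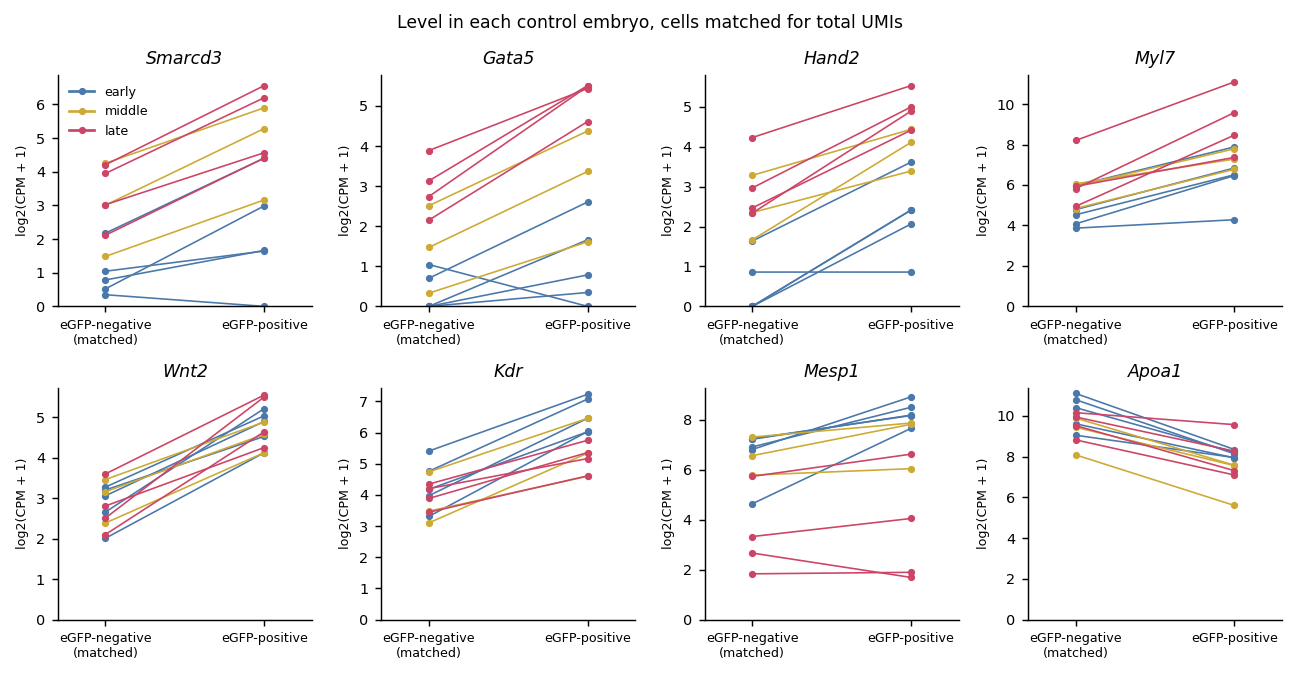
Each line joins an embryo's eGFP-negative partners of equal depth (left) to its eGFP-positive cells (right), with the level as log2(CPM + 1) on the vertical axis and lines coloured by stage, early, middle or late. *Smarcd3* was higher in eGFP-positive cells in 11 of 12 embryos, *Wnt2*, *Kdr* and *Myl7* were higher in all 12, and *Apoa1* was lower in all 12.

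Transcription factors of the cardiac programme were higher as a group. Of 11 listed members with enough counts, 10 were higher and 1 was lower, where 18.4% of all genes were higher and 17% lower. Their median log2 fold change was 1.55 against 0.025 over all genes tested. *Mef2c*, a MADS-box factor of cardiac and skeletal muscle, was 7.04-fold higher (log2 2.82 ± 0.20, SE), *Gata5* 5.87-fold (2.55 ± 0.13) and *Hand2*, a factor of the second heart field and limb, 4.45-fold (2.15 ± 0.17). *Gata5* ranged from 0 to 44.5 CPM in eGFP-positive cells with a median of 7.20, and from 0 to 13.8 CPM in partners with a median of 1.42, so the sides overlapped across embryos while 11 of 12 embryos moved upward. *Gata4* and *Gata6*, which act in both mesoderm and endoderm, were 1.94-fold and 2.76-fold higher and rose in every embryo. *Hand1*, a factor of extra-embryonic and early cardiac mesoderm, had a median of 259.0 CPM against 84.9 CPM and was 2.96-fold higher. *Isl1* (2.36-fold), *Meis1* (2.93-fold) and *Tbx3* (1.76-fold) were higher too. *Hopx*, a later cardiac cofactor, was the member that was lower, at 4.03 against 4.75 CPM (log2 -0.63 ± 0.16, SE). *Nkx2-5*, *Tbx5* and *Tbx2* had too few counts to be tested here, and *Nkx2-5* had a median of 2.78 CPM in eGFP-positive cells and 0.748 CPM in partners.

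Most tested sarcomere and muscle genes were higher. Of 10 tested members 9 were higher and none was lower, with a median log2 fold change of 1.92, where 18.4% of all genes were higher. Of the 22 listed genes 12, among them *Ttn*, *Myh6* and *Myh7*, had too few counts for the test. A gene could pass the filter on low counts through the eGFP-positive side alone. The median is therefore not ranked against that of the cardiac transcription factors. *Myl4*, the atrial essential light chain, was 10.4-fold higher (log2 3.38 ± 0.25, SE, adjusted p = 4.92e-08), *Actc1*, cardiac actin, 6.69-fold and *Myl7*, the atrial regulatory light chain, 5.07-fold, each higher in all 12 embryos. The late embryos carried most of the level. *Myl4* had a median of 2.16 CPM in eGFP-positive cells of early embryos and 0 in their partners, 7.29 against 1.80 CPM in middle embryos, and 167.1 against 9.59 CPM in late ones. *Myl7* was already counted early, at 18.5 to 235.1 CPM in eGFP-positive cells and 13.6 to 61.5 CPM in partners, and in each early embryo the eGFP-positive cells were the higher. *Acta2*, smooth muscle actin (3.31-fold), *Tnni1* (4.35-fold), *Tnnc1* (4.36-fold) and *Nexn* (3.10-fold) were also higher, and *Actn2*, with medians of 1.48 and 1.67 CPM but a fitted log2 fold change of 0.41 ± 0.30 (SE), did not pass the test.

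Genes of lateral plate and cranial mesoderm were higher without exception among the 13 tested, where 18.4% of all genes were higher. *Wnt2*, a ligand of the posterior heart field and allantois, ranged from 16.4 to 45.8 CPM in eGFP-positive cells and from 3.03 to 11.1 CPM in partners, so the sides did not overlap in any pair of embryos (4.46-fold, log2 2.16 ± 0.17, SE). *Foxf1*, a factor of splanchnic mesoderm, was 3.74-fold higher and rose in all embryos. Its level in eGFP-positive cells of the E6.5 embryo, 127.9 CPM, stood far above the 4.35 to 15.9 CPM of the other early embryos. *Kdr*, the VEGF receptor of endothelium and early mesoderm, ranged from 23.2 to 148.8 CPM against 7.59 to 41.4 CPM and was 3.39-fold higher, again in every embryo. *Pmp22* (3.45-fold), *Tcf21* (3.22-fold), *Prrx2* (3.03-fold), *Bmp4* (2.56-fold), *Pdgfra* (2.25-fold) and *Twist1* (2.23-fold) followed.

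Of 17 signalling genes of the heart field, 12 were higher and 1 was lower, where 18.4% of all genes were higher and 17% lower. Among the ligands, *Bmp5* was 3.48-fold, *Fgf10* 2.46-fold, *Fgf3* 2.05-fold and *Bmp2* 2.02-fold higher. The BMP-induced inhibitors *Smad6* and *Smad7* were 1.87-fold and 1.44-fold higher. The Id genes, direct targets of BMP signalling, did not move together: *Id3* was 1.17-fold higher, *Id2* 1.36-fold lower, and *Id1*, at 206.0 against 233.1 CPM, did not pass the test. The Wnt antagonists *Dkk1* and *Sfrp1* did not pass it either.

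By the rule for named genes, up to 12 genes per direction were named with the largest log2 fold change in the matched cells, called with and without matching, at 20 CPM or more on a side and with the same direction in all 12 embryos. The rule left 261 genes higher and 341 lower. Besides *Myl4*, *Actc1*, *Myl7*, *Wnt2*, *Foxf1*, *Pmp22*, *Kdr*, *Acta2* and *Tbx20* (3.85-fold), a T-box factor of the heart, it named *Rgs5*, a regulator of G protein signalling known from pericytes (4.24-fold), *Nrp1*, a co-receptor of VEGF and semaphorin (3.45-fold), and *Rbm24*, an RNA-binding protein of muscle splicing (3.38-fold). The 12 lower genes were *Afp* (4.27-fold), *Spink3* (3.94-fold), *Apoa1* (3.72-fold), *Apob* (3.65-fold), *Ttr* (3.38-fold), *Dpp4* (3.24-fold), *Apoa4* (3.12-fold), *Soat2* (3.09-fold), *Folr1* (3.06-fold), *Ctsh* (3.03-fold), *Amn* (3.03-fold) and *Nrk* (3.02-fold). Of these, *Afp*, *Apoa1*, *Ttr*, *Apoa4* and the endocytic co-receptor *Amn* are among the markers by which visceral endoderm-like clusters were named. *Apoa1* had a median of 244.8 CPM in eGFP-positive cells and 862.7 CPM in partners. The 12 genes fell in the same comparison in which visceral endoderm-like cells went from 12.3% of partners to 6.31% of eGFP-positive cells.

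Genes of the epithelial to mesenchymal transition all passed the test, 8 higher and 4 lower, where 18.4% of all genes were higher and 17% lower. The 4 lower ones were the epithelial adhesion and junction genes *Cldn7* (2.72-fold), *Cldn6* (2.63-fold), *Epcam* (2.37-fold) and *Cdh1* (2.26-fold), each lower in all 12 embryos. The higher ones were the transcription factors *Snai2* (2.77-fold), *Twist1*, *Snai1* (1.81-fold) and *Zeb2* (1.55-fold), the mesenchymal cadherins *Cdh11* (2.61-fold) and *Cdh2* (1.64-fold), and *Vim* (2.08-fold) and *Fn1* (2.05-fold).

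Genes of the primitive streak and of paraxial mesoderm were mixed. Of 9 tested paraxial mesoderm genes 4 were higher (*Foxc2*, *Rspo3*, *Aldh1a2* and *Tcf15*), 1 was lower and 4 did not pass, with a median log2 fold change of 0.39. Of 19 tested streak and nascent mesoderm genes 7 were higher, 2 were lower and 10 did not pass, where 18.4% of all genes were higher and 17% lower. Among the called ones, *Fgf8*, *Evx1* and *Tdgf1* lost the call in 9, 7 and 1 of the 12 fits that left out 1 embryo. *Mesp1* was 2.06-fold higher (log2 1.04 ± 0.17, SE) and *Lefty2*, a Nodal antagonist, 1.98-fold. *T*, the brachyury gene of the streak and notochord, had a median of 113.2 CPM in eGFP-positive cells and 92.6 CPM in partners, but a fitted log2 fold change of -0.16, lower in 8 of 12 embryos, and did not pass the test. Neither did *Eomes*, *Mixl1*, *Tbx6*, *Msgn1* and *Dll1*. *Wnt3a* was 1.91-fold lower and *Hes7*, an oscillating gene of the segmentation clock, 1.75-fold lower.

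*Mesp1* is transient, and its level differed widely between embryos. The 10 embryos in which *Mesp1* Cre recombines Ai14 have 1 wild-type *Mesp1* allele, and whether the 2 without Ai14 have 1 or 2 was not separated here, nor was its part in the differences between embryos tested. In the 5 early embryos it was between 199.9 and 479.4 CPM in eGFP-positive cells and between 23.8 and 149.8 CPM in partners. At late E7.5 it was 97.2 and 52.0 CPM in replicate 1 but 2.72 and 2.56 CPM in replicate 2. At E7.75 it was 2.22 and 5.34 CPM, then 15.5 and 9.01 CPM. Only E7.75 replicate 1, with 5 and 12 counts, had the lower value in eGFP-positive cells.

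Among 16 subunits of the BAF complex, 8 were higher and none was lower, where 18.4% of all genes were higher and 17% lower. After *Smarcd3* the change was small for all but *Dpf3*. *Dpf3*, a BAF subunit of heart and skeletal muscle, was 2.24-fold higher (log2 1.17 ± 0.13, SE) and higher in all 12 embryos, at 3.59 to 10.6 CPM against 1.33 to 7.23 CPM. *Smarca2* was 1.36-fold higher, and *Smarca4*, *Arid1a*, *Arid1b*, *Smarce1* and *Smarcd2* differed by at most 1.17-fold. *Smarcd1*, a paralogue of *Smarcd3*, had 95.95 against 100.3 CPM and did not pass the test.

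*Hspa1a*, an inducible heat shock gene, was 5.30-fold higher in eGFP-positive cells (log2 2.41 ± 0.20, SE, adjusted p = 1.20e-07). Its level was 2.31 to 34.7 CPM with a median of 9.13 CPM, against 0.433 to 7.56 CPM with a median of 2.75 CPM, higher in 10 of 12 embryos. Of 11 tested heat shock genes 5 were higher and 1 was lower, with a median log2 fold change of 0.075. Over all genes 18.4% were higher and 17% lower. The other higher ones, *Dnajb1* (1.22-fold), *Bag3*, *Hspd1* and *Hsf1*, moved less than *Hspa1a*, and *Hspb1* was 1.401-fold lower. The chaperones *Hsp90aa1*, *Hsp90ab1*, *Hspa8*, *Hsph1* and *Hspe1* did not pass the test. *Hspa1b*, a near-identical neighbour with which *Hspa1a* shares reads, had at most 1.901 CPM and was not tested, so the assignment between the pair is uncertain. The transgene itself contains an *Hsp68* minimal promoter, and libraries were read from the 5′ end. Whether transcripts of the transgene were counted as *Hspa1a* was not tested.

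Genes that dissociation can induce moved little, and over all genes 18.4% were higher and 17% lower. Of 12 tested, *Jun* was 1.47-fold and *Atf3* 1.46-fold higher, *Dusp1* 1.20-fold and *Jund* 1.12-fold lower (not called in 5 and 6 of the 12 fits that left out 1 embryo), and *Fos*, *Egr1* and 6 more did not pass. Cell cycle genes moved less. In S phase 2 of 10 were higher (*Rrm2*, 1.10-fold, and *Gins2*, 1.08-fold), and in G2 and M phase 2 of 10 (*Tpx2*, 1.13-fold, and *Cenpe*, 1.11-fold, not called in 6 of those fits), against the 18.4% of all genes that were higher.

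The number of eGFP UMIs ordered the cells further. Cells with 1, 2 and 3 or more eGFP UMIs were set beside their own partners, whose median depths were 27147, 30327 and 33265 UMIs, over 12, 7 and 6 embryos with enough pairs for values per embryo. Summed over embryos, *Smarcd3* was at 28.1, 56.8 and 116.7 CPM in the 3 groups of eGFP-positive cells, and at 9.09, 7.80 and 9.12 CPM in their partners. *Gata5* was at 18.8, 39.7 and 94.4 CPM against 4.66 to 5.34 CPM, *Mef2c* at 9.96, 24.7 and 69.3 CPM against 1.74 to 2.62 CPM, and *Myl7* at 235.9, 511.9 and 1462 CPM against 34.2 to 54.1 CPM. These cardiac genes and *Smarcd3* were higher with each step, while the partners stayed low.

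**Figure D3:**
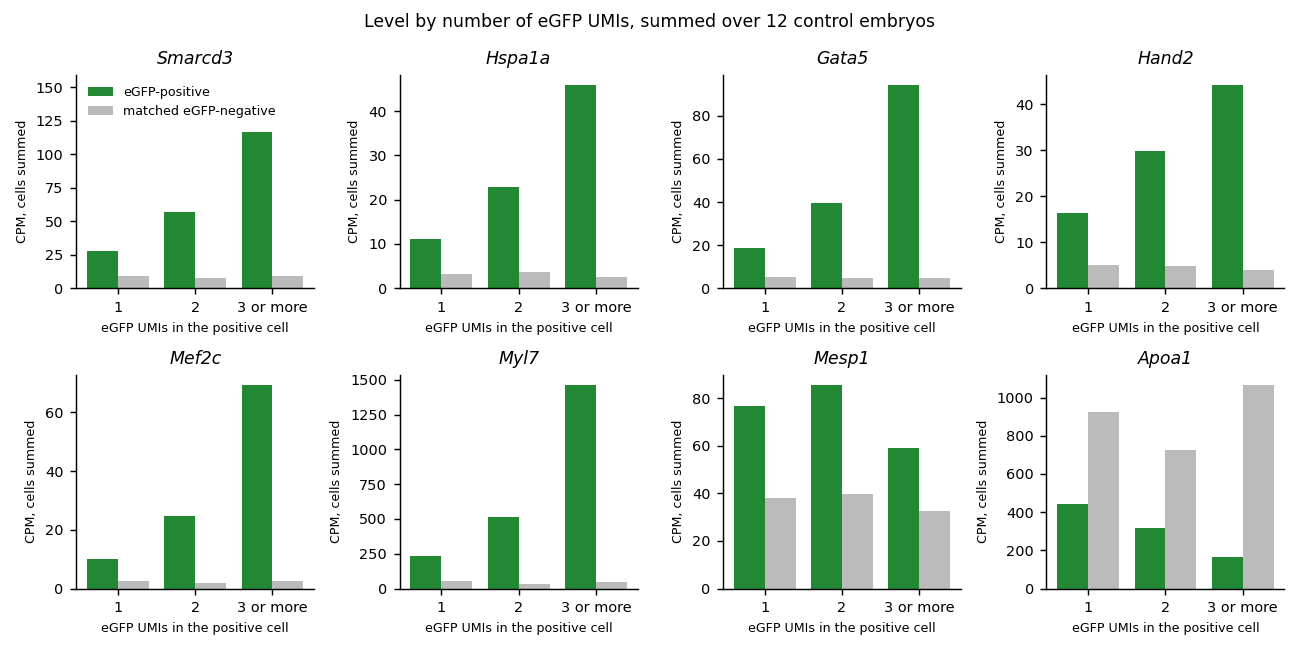
Green bars are the level (CPM, cells summed over the 12 control embryos) in eGFP-positive cells with 1, 2 or 3 or more eGFP UMIs, and grey bars the level in their eGFP-negative partners of equal depth. *Smarcd3* went from 28.1 to 116.7 CPM and *Apoa1* from 440.6 to 165.2 CPM, while *Mesp1* was at 76.9, 85.5 and 59.0 CPM.

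*Hspa1a* was ordered by eGFP UMIs as well, at 11.2, 22.8 and 46.0 CPM against 2.57 to 3.56 CPM in partners. *Mesp1* was not, at 76.9, 85.5 and 59.0 CPM against 32.7 to 39.8 CPM. *Kdr* was at 42.4, 56.8 and 41.9 CPM against 14.7 to 15.9 CPM. *Msgn1*, a factor of presomitic mesoderm, went the other way, at 33.1, 25.4 and 11.4 CPM against 50.1 to 51.1 CPM, and the epithelial gene *Cdh1* was at 21.4 CPM with 1 UMI and 4.86 CPM with 3 or more. The groups hold different shares of embryos. Late embryos gave most cells of each group, with 3822 of 5134 at 1 eGFP UMI, 964 of 1230 at 2 and 618 of 751 at 3 or more. The shallow E7.75 replicate 1 gave 359, 18 and 2 cells. No test was made across the groups.

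Partners were then taken from the same cluster as well as the same embryo and within 10% of the UMIs, which was possible for 6870 of the 7115 eGFP-positive cells (96.6%). Listed genes were held out of the clustering, so the sides can still differ in the mix of cells inside a cluster, which was not tested. In this comparison 800 of 11673 genes (6.85%) were called, 387 higher (3.32%) and 413 lower (3.54%). Without E7.75 replicate 2 the count was 474. Of the 800 genes, 602 (75.3%) were also called with depth alone matched, which is 14.4% of those 4176 calls, and 36 of the 602 had the opposite direction.

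*Smarcd3* was also higher within clusters. It was 2.02-fold higher (log2 1.02 ± 0.056, SE, adjusted p = 2.19e-11), with a median of 17.3 CPM in eGFP-positive cells and 8.48 CPM in partners. It was higher in 11 embryos and lower in none. In the late embryos the values were 93.7 and 45.7 CPM, 14.99 and 7.43 CPM, 23.0 and 19.0 CPM, and 69.8 and 29.2 CPM.

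Within clusters 3.32% of all genes were higher and 3.54% lower. Of the cardiac transcription factors 10 of 12 tested members were higher within clusters and none was lower, with a median log2 fold change of 0.60. *Gata5* (log2 1.37 ± 0.10, SE), *Mef2c* (1.31 ± 0.16) and *Nkx2-5* (1.20 ± 0.16) led, followed by *Meis1* (0.86 ± 0.073), *Hand2* (0.79 ± 0.077) and *Gata6* (0.65 ± 0.089). *Hopx*, lower with depth alone matched, had 0.058 here and did not pass the test. *Hand1* did not pass it either, at 233.6 against 219.0 CPM (0.19 ± 0.074, adjusted p = 0.142). Of 12 sarcomere genes 8 were higher and none lower, *Myl4* with 1.04 ± 0.20 and *Myl7* with 0.62 ± 0.14, whereas *Acta2*, 3.31-fold higher with depth alone matched, had -0.028 ± 0.062 here. Of 13 lateral plate genes 8 were higher, among them *Wnt2* (0.79 ± 0.12), *Tcf21* (0.71 ± 0.10) and *Prrx2* (0.48 ± 0.044), and *Foxc1*, shared with paraxial mesoderm, was lower (-0.34 ± 0.067).

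**Figure D4:**
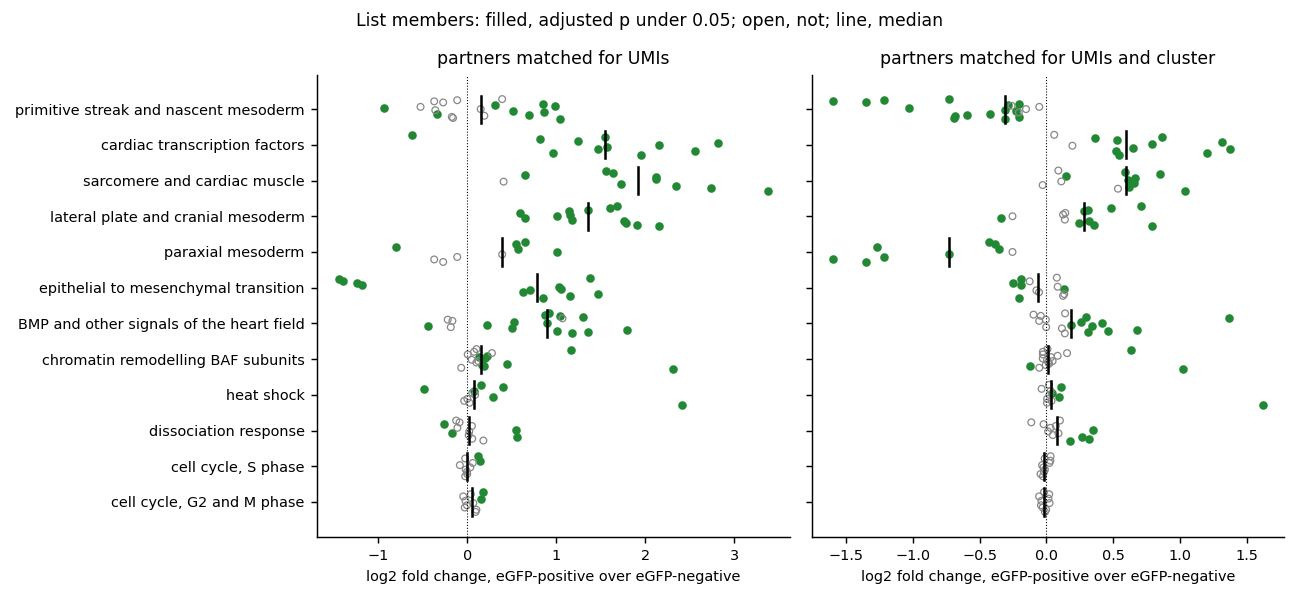
Each point is a listed gene's log2 fold change of eGFP-positive over eGFP-negative cells, with partners matched for UMIs on the left and for UMIs and cluster on the right, filled where the adjusted p was under 0.05, and the black line marks the median of the list. Cardiac transcription factors had medians of 1.55 and 0.60, while paraxial mesoderm genes had 0.39 on the left and -0.73 on the right.

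Genes of paraxial and presomitic mesoderm were lower within clusters. Of 9 tested, 8 were lower and none was higher, with a median log2 fold change of -0.73, where 3.54% of all genes were lower. *Msgn1* (log2 -1.59 ± 0.17, SE), *Tbx6* (-1.35 ± 0.10), *Hes7* (-1.27 ± 0.071) and the Notch ligand *Dll1* (-1.22 ± 0.11), all of the segmenting presomitic mesoderm, had the largest changes. Of 19 streak and nascent mesoderm genes 15 were lower and none higher, *T* with -0.69 ± 0.054 and *Mixl1* with -0.69 ± 0.10. *Mesp1* turned from higher to lower, at 214.3 against 249.9 CPM as medians (-0.31 ± 0.048, adjusted p = 7.47e-05), and was lower in 11 of 12 embryos. *Hes7* and *Dll1* are called here, as are *Tbx6* and *Msgn1*, although only *Hes7* was called with depth alone matched.

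Other lists were called in part within clusters, where 3.32% of all genes were higher and 3.54% lower. *Hspa1a* had the largest change among them, 3.07-fold higher (log2 1.62 ± 0.13, SE), and *Dnajb1*, *Hspe1* and *Bag3* were the other 3 of 11 heat shock genes called, all higher. *Dpf3* was 1.55-fold higher in all 12 embryos, and with *Smarcd3* and the slightly lower *Smarcd2* it made up the 3 of 16 BAF subunits called. Of 17 signalling genes 9 were higher, against 3.32% of all genes, *Sfrp5*, a Wnt antagonist of the first heart field, with 1.36 ± 0.18 and *Bmp5* with 0.68 ± 0.075. Of 12 genes of the epithelial to mesenchymal transition 1 was higher (*Vim*) and 4 were lower. Of the dissociation genes *Jun*, *Fos*, *Fosb* and *Atf3* were higher, by log2 0.175 for *Fos* to 0.35 for *Atf3*. No cell cycle gene of 20 was called.

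The contrast was also described inside named classes, without a test. In 2080 pairs of paraxial-like cells from 5 embryos, *Smarcd3* was at 87.5 CPM in eGFP-positive cells and 32.3 CPM in partners, *Gata5* at 60.4 and 12.01 CPM, *Mef2c* at 42.8 and 10.7 CPM and *Hspa1a* at 28.4 and 5.21 CPM, each higher in all 5 embryos. *Msgn1* was at 65.1 and 312.9 CPM and *Tbx6* at 30.02 and 117.8 CPM, both lower in all 5. eGFP-positive cells of these clusters had more of the cardiac and less of the presomitic transcripts than cells of like depth in the same cluster. Whether the sides held a different mix of cells inside these clusters was not tested. The name describes the cluster and not its eGFP-positive cells, since cardiac progenitors and cranial mesoderm had no class of their own. In the largest paraxial-like cluster, of 4425 cells, *Tcf15*, *Tbx6*, *Msgn1* and *Hes7* were not among the raised markers. Of its cells 97.4% came from the shallow E7.75 replicate 1.

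In 684 pairs of nascent mesoderm-like cells from 6 embryos, *Smarcd3* was at 30.1 and 12.1 CPM, *Foxf1* at 123.4 and 59.8 CPM, *Hand2* at 13.2 and 5.05 CPM and *Kdr* at 80.2 and 49.0 CPM, while *Mesp1* was at 450.7 and 529.0 CPM and *Tbx6* at 52.2 and 105.7 CPM. These sums weigh large embryos most: of the 6 embryos, eGFP-positive cells had the higher level of *Foxf1* in 5, of *Smarcd3* and *Kdr* in 4, of *Hand2* in 3, and of *Mesp1* and *Tbx6* in 1. In 1058 pairs of lateral plate-like cells from 6 embryos, *Smarcd3* was at 63.6 and 44.4 CPM and higher in all 6, *Gata5* at 33.0 and 23.3 CPM and *Hspa1a* at 22.6 and 10.9 CPM. *Foxf1* and *Tbx20*, which are high in this class, hardly differed there, at 214.3 and 210.2 CPM and at 74.4 and 71.8 CPM.

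**Figure D5:**
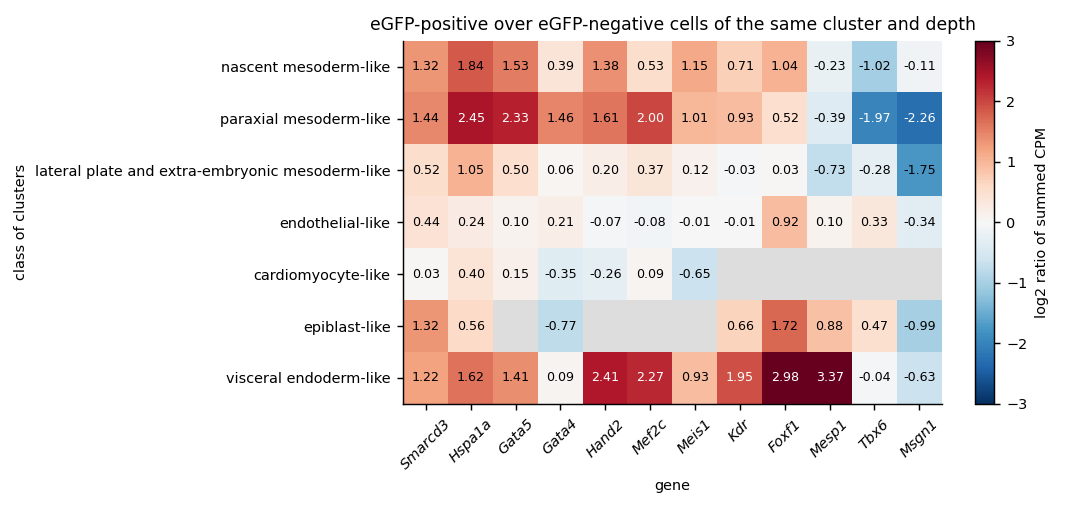
Each cell of the grid gives the log2 ratio of summed CPM, eGFP-positive over eGFP-negative, for a gene (columns) in a class of clusters (rows), with partners from the same embryo and cluster and of like depth. Grey marks fewer than 20 counts over both sides. Paraxial mesoderm-like cells had -2.26 for *Msgn1*, and cardiomyocyte-like cells had 0.027 for *Smarcd3*.

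For cardiomyocyte-like cells 82 pairs from 2 embryos could be formed, out of 186 eGFP-positive cells. The embryos were late E7.5 replicate 2 and the shallow E7.75 replicate 1. In the latter the 35 eGFP-positive cells of this class had a median of 5435 UMIs, so its *Smarcd3* level rests on few counts. Summed over both embryos *Smarcd3* was at 96.9 and 95.2 CPM, but the embryos went opposite ways, since eGFP-positive cells had 30.8 CPM in 1 embryo and 110.2 CPM in the other, while partners had 92.9 and 95.7 CPM. *Myl7*, at 13460 and 12710 CPM, was higher in 1 of 2 embryos. *Gata5* (239.3 and 215.0 CPM) and *Hspa1a* (94.4 and 71.4 CPM) were higher in both embryos, and *Gata4* (91.8 and 117.1 CPM), *Hand2* (35.2 and 42.1 CPM) and *Meis1* (30.9 and 48.5 CPM) in neither. In 329 pairs of endothelial-like cells from 3 embryos, *Kdr* was at 385.9 and 387.8 CPM and *Smarcd3* at 6.14 and 4.51 CPM. In 407 pairs of visceral endoderm-like cells from 5 embryos, most of the mesoderm transcripts given here had the higher sum in eGFP-positive cells. *Mesp1*, at 5.15 and 0.499 CPM, and *Myl7*, at 43.5 and 7.15 CPM, were higher in eGFP-positive cells of all 5 embryos and *Kdr*, at 8.64 and 2.24 CPM, in 3 of 5. *Foxf1*, *Hand2*, *Wnt2*, *Mef2c*, *Tbx20* and *Gata5* had log2 ratios of 1.41 to 2.98, each higher in 3 or 4 of 5 embryos, and *Myl4* 3.64, higher in 2 of 5. The summed level of *Msgn1* was lower, at 4.82 and 7.48 CPM and higher in 2 of 5, and that of *Tbx6* was 2.82 and 2.91 CPM, although it was higher in 4 of 5. *Gata4*, which endoderm itself expresses, was at 82.1 and 77.4 CPM. Likely doublets were 26.5% of eGFP-positive and 13.9% of eGFP-negative visceral endoderm-like cells, and their part in this was not tested.

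The lineage reporter, which was not used to choose the cells, was counted more often in eGFP-positive cells. In the 10 embryos with Ai14, between 16.6% and 80.8% of eGFP-positive cells (median 61.6%) had at least 1 Ai14 UMI, and between 6.86% and 24.6% of partners of equal depth (median 20.2%). The share was higher in eGFP-positive cells in 10 of 10 embryos, by 38.4 ± 14.2 percentage points (mean ± SD, n = 10, exact two-sided sign-flip permutation test, p = 0.001953, the smallest p that 10 pairs allow). The smallest difference, 9.76 points, was that of the shallow E7.75 replicate 1. In the embryos without Ai14 the shares were 3.904% and 2.10% at early E7.5 and 2.06% and 4.12% in late E7.5 replicate 1, the level with no reporter present. The share that free RNA or doublets give in embryos with Ai14 was not measured.

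Within clusters the gap in Ai14 was smaller. Against partners of the same cluster it was 13.1 ± 8.74 percentage points (SD, n = 10), higher in 9 of 10 embryos (exact permutation, p = 0.003906), with a median share of 60.8% in eGFP-positive cells and 45.1% in partners. Pooled over all 12 embryos, of which 2 lack Ai14, the share was 45.5%, 62.6% and 67.4% of cells with 1, 2 and 3 or more eGFP UMIs, against 18.9%, 22.2% and 21.7% of their partners, and the embryos make up different parts of these groups. By embryo, cells with 2 or more eGFP UMIs had a higher share than all eGFP-positive cells in 8 of 9 embryos with Ai14 and at least 10 such cells. The exception was the shallow E7.75 replicate 1, with 5.0% of 20 cells against 16.6%, of whose 379 eGFP-positive cells 359 had 1 eGFP UMI. Cells with 2 or more eGFP UMIs are part of all eGFP-positive cells and were deeper, with medians of 37123 against 33391 UMIs at E7.0. Depth was not matched in this comparison by embryo.

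The contrast was also tested by stage. In a fit of all stages, early embryos had 1975 called genes, middle ones 1542 and late ones 2245. *Smarcd3* had log2 fold changes of 2.51 (early), 2.07 (middle) and 2.42 (late), *Gata5* of 2.99, 2.24 and 2.64, and *Hand2* of 2.49, 1.89 and 2.23. Their late minus early differences did not pass the test, with *Smarcd3* at -0.097 ± 0.32 (SE, adjusted p = 0.987). The E6.0 embryos gave few *Smarcd3* counts, so its early value rests mainly on late E6.0 and E6.5.

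The late minus early difference passed the test for 81 of 11790 genes (0.687%), 35 up and 46 down, and rested on few embryos. No gene was called when E6.0 replicate 2, late E6.0 replicate 1 or late E7.5 replicate 2 was left out, with 1284, 1204 and 899 genes at an unadjusted p under 0.05, and 23, 10 and 3 genes were called without E6.0 replicate 3, E7.75 replicate 1 and E7.75 replicate 2. Early embryos came from experiments 6, 7 and 8 and late ones from 4, 5 and 7, so that only experiment 7 held both. Within experiment 7, with 1 early, 3 middle and 2 late embryos, edgeR called 0 genes and 652 had an unadjusted p under 0.05.

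Among the 81 were presomitic genes. *Msgn1* had a log2 fold change of 1.32 in early and -1.18 in late embryos (difference -2.50 ± 0.49, SE, adjusted p = 0.0317), *Dll1* of 1.08 and -0.84, and *Tbx6* of 0.84 and -0.85. *Msgn1* was at 8.42 CPM in eGFP-positive cells and 1.06 CPM in partners as medians of early embryos, and at 22.8 and 49.4 CPM in late ones. *Kdr* fell from 2.40 in early to 1.27 in late embryos (difference -1.13 ± 0.23, SE, adjusted p = 0.0377), and *Fn1* from 1.56 to 0.58. *Id2* went from -0.86 to 0.095. Within experiment 7, whose embryos also entered the fit that called these genes, the differences were -1.87 for *Msgn1*, -1.51 for *Dll1*, -1.10 for *Tbx6*, -1.75 for *Kdr*, -1.06 for *Fn1* and 1.24 for *Id2*, with an unadjusted p of 0.000511 to 0.0243 and an adjusted p of 0.924 to 0.976 by edgeR. A call lost among these 6 embryos does not show that the differences depend on the experiment.

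In *Mesp1* KO embryos the same contrast was set beside that of the controls. *Mesp1*, the deleted gene, had 0 counts in eGFP-positive cells of all 3 KO embryos and 1 count in the partners of late E7.5. The KO embryos held 12.3%, 10.2% and 3.62% eGFP-positive cells at E6.5, E7.0 and late E7.5, the last from a shallow library with a median of 3827 UMIs. *Smarcd3* was at 4.26 and 0.851 CPM in eGFP-positive cells and partners at E6.5, 5.34 and 2.76 CPM at E7.0, and 9.31 and 3.81 CPM at late E7.5. *Myl7* was at 26.0 and 21.9, 54.0 and 20.8, and 171.8 and 87.6 CPM. Both genes were higher in eGFP-positive cells of each KO embryo, as were *Kdr* and *Hspa1a*. Cardiac factors with few counts were not higher in each: *Mef2c* had 5 and 5 counts at E6.5, 10 and 1 at E7.0 and 5 and 7 at late E7.5. *Hand2* had 14 and 14, 18 and 9, and 40 and 13 counts, and *Gata5* 9 and 5, 6 and 6, and 22 and 5.

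The difference between KO and control embryos in the contrast was called for 0 of 11360 genes (0%) by edgeR, with 624 at an unadjusted p under 0.05, 5 called by DESeq2 and 114 by edgeR without a filter on low counts. The fitted KO minus control differences were -0.88 ± 0.40 (SE, adjusted p = 0.888) for *Smarcd3*, -1.38 ± 0.60 for *Gata5*, -1.76 ± 0.75 for *Mef2c* and -1.38 ± 0.46 for *Myl7*. With 1 KO embryo per stage, each assumed to vary like the controls, differences of this size were not separable from the spread between embryos after adjustment, which does not show that the genotypes are alike. The KO embryos at E6.5 and E7.0 came from experiment 8 and the late E7.5 one from experiment 5. All middle controls came from experiment 7, so genotype and experiment cannot be told apart at that stage.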

How the data were processed

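Whole mouse embryos were profiled singly by 10x Genomics 5′ single-cell RNA-seq. Per the labels and methods, the authors aligned reads with Cell Ranger (version 3.0.2) to mm10 with eGFP and Ai14 sequences added, and deposited raw UMI counts per gene and cell. Cells with under 10% mitochondrial UMIs, under 50000 UMIs and 200 to 7000 genes were kept. Likely doublets were marked, not removed. Clusters came from 2000 variable genes and 50 principal components (Leiden resolution 1), with no correction between experiments and with reporters and listed genes held out; 35 of 45 were named from markers. Counts summed per embryo and side were tested with edgeR 4.0.16 (quasi-likelihood, TMM, embryo as a block, so that both sides of an embryo are paired; Benjamini-Hochberg adjustment, threshold 0.05), and the code was tested on simulated data. DESeq2 1.42.0 was an alternative. SEs were derived from the F statistic. Intervals are exact (Clopper-Pearson, 95%) and cover counting error only. Members and lists were chosen with earlier results of these data known. Genes were named by size of change, as stated beside them, plus all listed genes.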

Additional observations from a re-analysis of the deposited data

Results flagged for a closer look

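In 59 groups of 4, 5 or 10 embryos, a single sample stood apart from the others in 2, where chance gives about 1 in 20. *Rgs5* in eGFP-positive cells of E7.75 replicate 1, the shallow library, was at 27.6 CPM against 43.9 to 45.3 CPM in the other late embryos. *Foxf1* in eGFP-positive cells of the E6.5 embryo was at 127.9 CPM against 4.35 to 15.9 CPM in the other early embryos.

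Of 156 listed or named genes, 10 differed between late and early embryos in the eGFP contrast by the test of the difference itself, where 0.687% of all genes did, and leaving out any of 3 single embryos (E6.0 replicate 2, late E6.0 replicate 1 or late E7.5 replicate 2) took edgeR's calls over all genes to 0, with 1284, 1204 and 899 genes at an unadjusted p under 0.05. The late minus early log2 difference was -2.50 for *Msgn1*, -1.92 for *Dll1*, -1.70 for *Tbx6*, -1.59 for *Dll3*, -1.30 for *Eomes*, -1.13 for *Kdr*, -1.08 for *Tbx3*, -0.98 for *Fn1*, -0.74 for *Snai1* and 0.95 for *Id2*. Within experiment 7, whose 6 embryos are part of the same data, the differences were -1.87, -1.51, -1.10, -1.36, -0.46, -1.75, -1.12, -1.06, -0.56 and 1.24 in the same order of genes, with an adjusted p (edgeR) of 0.924 to 0.980.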

How the results depend on the processing

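Depth limits eGFP detection, and early embryos hold as few as 26 eGFP-positive cells. Leaving out each embryo gave 4788 to 5596 genes for all cells, 3165 to 4477 for UMI-matched cells, 474 to 849 with cluster matched, 0 to 117 for late minus early and 0 to 1 for KO minus control. Of 104 listed or named genes called in UMI-matched cells, 87 were tested and called in all 12 of these fits, 11 were not tested in every fit, and 6 lost the call in at least 1: *Fgf8* in 9 fits, *Evx1* in 7, *Cenpe* and *Jund* in 6, *Dusp1* in 5 and *Tdgf1* in 1, with an adjusted p of at most 0.117 (edgeR). The rule for named genes asked for 1 direction in all 12 embryos, which favours such calls.

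Without the embryo block that pairs both sides, 1896 genes were called for all cells, 1350 UMI-matched, 0 with cluster matched (117 at an unadjusted p under 0.05) and 0 for late minus early (319 unadjusted). At 2 or more eGFP UMIs, 2473 genes were called UMI-matched, 6 for late minus early and 1 for KO minus control. DESeq2 called 481 with cluster matched, 185 for late minus early and 5 for KO minus control. Without the filter on low counts, late minus early had 483 and KO minus control 114. Without the embryos lacking Ai14, 513 were called with cluster matched, 149 for late minus early and 1 for KO minus control. Leiden resolution 2 gave 516 with cluster matched. Late minus early had 206 in unmatched cells and 0 within experiment 7, a setting chosen after seeing the data. The causes were not tested. Reversed signs concerned genes not called: *Tbx6* (0.18 by DESeq2, 0.0085 without the block), *Msgn1* (0.23 by DESeq2) and *Dll1* (0.20 by DESeq2, 0.0061 without the embryos lacking Ai14, 0.087 without the block, -0.26 to 0.0089 on leaving out each embryo). The Ai14 difference was 46.9 points at 2 or more eGFP UMIs, 39.3 without likely doublets and 42.9 against all eGFP-negative cells. The eGFP share was 0.134% to 4.62% at 2 or more UMIs and 2.33% to 13.5% without likely doublets.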
